A study of Homo sapiens with 3 samples.

Results

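The matrix metalloproteinases (MMPs), the ADAMTS proteases and the tissue inhibitors of metalloproteinases (TIMPs) were examined in the transcriptome of CAL27, a human oral squamous cell carcinoma (OSCC) cell line, and of its drug-resistant derivatives. Members were taken by gene symbol alone, as MMP followed by digits and at most 1 letter, ADAMTS followed by digits, and TIMP followed by 1 digit. This gave 46 of the 19220 genes in the count table, namely 23 MMP, 19 ADAMTS and 4 TIMP genes. A filter of 10 counts, averaged across libraries, was passed by 30 members, and 16 stayed under it. The rule itself uses no measured value.

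RNA-seq libraries of 3 lines were used, with 1 library per line. CAL27 is the parental line, labelled wild type and grown without drug. CAL27/5FU is the 5-fluorouracil resistant line, selected by raising the 5FU concentration over many months and kept in 10 μM 5FU, and CAL27/OXA is the oxaliplatin resistant line, kept in 10 μM OXA. All 3 were grown in high-glucose DMEM with serum, and whether a resistant line came from 1 clone is not given in the sources used here. Since each resistant line grew in its drug and the parental line did not, lasting change of the line and the effect of the drug in the medium cannot be told apart. The libraries held 41786182 (CAL27), 37297713 (CAL27/5FU) and 43455488 (CAL27/OXA) counts. After TMM scaling their effective sizes were 38953668, 39140070 and 44421127 counts, so that raw counts of CAL27 and CAL27/5FU can be read almost directly against each other.

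MMPs are zinc-dependent endopeptidases that are made as inactive zymogens and, once their propeptide is removed, cut collagens, laminins, proteoglycans and many cell surface proteins. ADAMTS proteases are secreted relatives with thrombospondin repeats that act on aggregating proteoglycans, procollagens and other matrix proteins. TIMPs bind the active site of MMPs, and TIMP3 also inhibits several ADAMTS and ADAM proteases. In oral carcinoma MMPs are known for the breakdown of the basement membrane and the stroma around the tumour.

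The tables also hold columns named as second samples of the 3 lines, which were left aside because no sample label describes them. With the 1 labelled library per line, ratios were therefore given without a test between replicates or a p-value. A log2 ratio compares counts per library size (CPM, with TMM scaling) after a prior count of 2 was added. Ratios and folds not given as log2 carry no prior count, so they can differ from the log2 ratio at low counts. The range in brackets after either is a 95% interval computed without the prior count, by the exact Clopper-Pearson method for 2 counts. This interval covers counting error only and not the spread between cultures. Genes past 2-fold, with a log2 ratio beyond 1 or -1, were counted as higher or lower. In bulk libraries, fewer cells that express a gene and less RNA per cell cannot be told apart. Levels are also given as deposited FPKM values, which are scaled by gene length and by the total count, and comparisons between genes were made on FPKM alone.

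The control regions upstream of a few members are shown first because the MMP genes of chromosome 11 are known targets of AP-1, a dimer of FOS and JUN proteins. RefSeq promoter windows (GRCh38.p14, from 250 bases before to 50 bases after the start) were given for 27 of the 46 members. The lines below hold the stretch before the start of MMP7 (chr11:102530754-102530847, minus strand), MMP10 (chr11:102780629-102780728, minus strand) and TIMP3 (chr22:32801605-32801700, plus strand), kept to the bases outside the GENCODE gene. ADAMTS12 is shown only around its match (chr5:33892058-33892084, minus strand), which lies before the RefSeq start and inside the longer GENCODE gene. Capitals mark TGANTCA, the AP-1 letters with any middle base, on either strand. MMP7 and MMP10 are matrilysin and stromelysin genes of the chromosome 11 cluster, ADAMTS12 had the largest ratio to CAL27 among the tested members, and TIMP3 had the smallest.
MMP7: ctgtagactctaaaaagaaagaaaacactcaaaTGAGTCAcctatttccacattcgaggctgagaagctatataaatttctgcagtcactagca
MMP10: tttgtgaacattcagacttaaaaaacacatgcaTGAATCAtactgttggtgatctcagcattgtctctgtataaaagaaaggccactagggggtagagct
ADAMTS12: cactgtcagcTGAATCActcccctttt
TIMP3: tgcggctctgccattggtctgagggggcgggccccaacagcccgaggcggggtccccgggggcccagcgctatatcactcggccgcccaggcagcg

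The TGANTCA letters began 67 bases before the start in both MMP7 and MMP10, and TATAAA began 30 bases before it in MMP7 and 31 bases before it in MMP10. Among member windows, TGANTCA was found in 4 of 27 (MMP7, MMP10, MMP20 and ADAMTS12), against 7.76% of all 27305 windows. In windows of tested members it was found in 3 of 17, against 4.97% of the 10648 windows of tested genes. TGAGTCA, which is contained in TGANTCA, was found in MMP7 alone among the members, against 4.92% of all windows. TATAAA was found in 7 of 27 member windows, against 12% of all. Of the 5 windows given for the chromosome 11 cluster, 3 held TGANTCA and 4 held TATAAA. A match describes the letters only. The 5 windows of the cluster were also poor in G and C, while the median of all windows was 58.3%. They held 35.7% in MMP7, 36.3% in MMP10, 33.3% in MMP27, 40.7% in MMP8 and 44.3% in MMP20. TIMP3 had 72.7% G and C and 31 CG pairs in its 300 bases, beside medians of 65% and 26 in the windows of tested genes. Other members had more, such as ADAMTS2 with 80.3% and 47 and MMP15 with 75.3% and 39.

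The members covered a wide range of levels, and most were low. At 1 FPKM or more stood 8 members in CAL27 against 12 in CAL27/5FU and 9 in CAL27/OXA, and 6 in every library. MMP14, the membrane-type MMP that activates pro-MMP2 and cuts fibrillar collagen at the cell surface, had the highest level of the 46 in each library, at 104.4 FPKM in CAL27 against 93.1 in CAL27/5FU and 96.2 in CAL27/OXA. TIMP1 and TIMP2 followed it. MMP14 alone made up 88.1%, 70.5% and 87.0% of the summed MMP level in CAL27, CAL27/5FU and CAL27/OXA. Without it the summed FPKM of the other MMPs was 14.1 in CAL27 against 39.0 in CAL27/5FU and 14.4 in CAL27/OXA, so that the 5FU-resistant library stood above the other two. The summed ADAMTS level was 3.12 FPKM in CAL27 against 11.7 in CAL27/5FU and 11.3 in CAL27/OXA, both resistant libraries being above the parental one. The summed TIMP level was 45.5, 95.6 and 69.5 FPKM in the same order, most of it TIMP1.

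**Figure D1:**
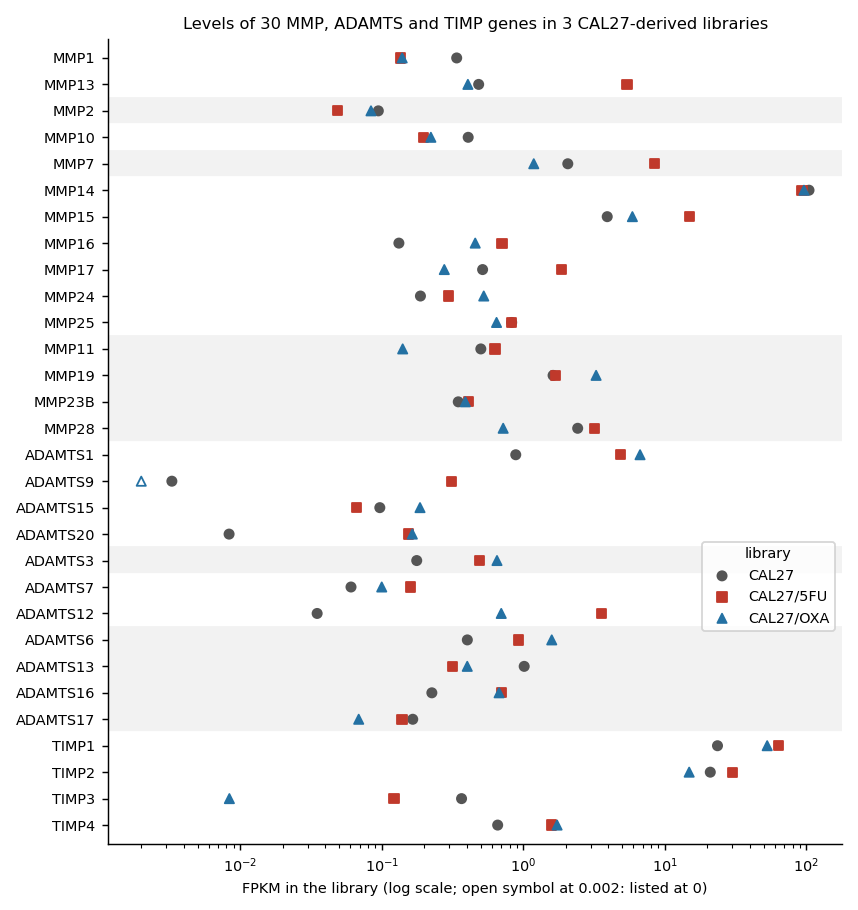
FPKM of the 30 members that passed the filter, on a log axis, with 1 symbol per library (circle CAL27, square CAL27/5FU, triangle CAL27/OXA) and genes grouped by role in shaded bands. MMP14 lies near 100 FPKM in all 3 libraries, while ADAMTS12 spans from 0.0350 in CAL27 to 3.56 in CAL27/5FU and ADAMTS9 is listed at 0 in CAL27/OXA.

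In CAL27/5FU against CAL27, 15 of the 30 tested members were more than 2-fold higher, against 8.46% of all 13676 tested genes, and 4 were more than 2-fold lower, against 6.72%. In CAL27/OXA against CAL27, 10 were higher, against 6.54%, and 6 were lower, against 9.28%. Between the resistant lines, CAL27/OXA was higher than CAL27/5FU for 1 member, against 4.18%, and lower for 9, against 8.38%. The 15 higher and these 9 lower members include ADAMTS9, which passed the filter through the CAL27/5FU library alone. The 15 and the 10 higher both include ADAMTS20 and ADAMTS12. With 2 and 9 counts in CAL27, these passed the filter through the resistant libraries, where they were high. The comparisons with CAL27 share the CAL27 library. The median log2 ratio of the tested members was 0.74 in CAL27/5FU and -0.11 in CAL27/OXA, beside a median of all tested genes within 0.01 of 0 in both. The sign of the CAL27/OXA median turned on ADAMTS9, which had 1 count in CAL27 and 0 in CAL27/OXA, and the median was 0.03 with that gene left out. ADAMTS genes held most of the higher calls, with 8 of 11 tested in CAL27/5FU and 6 of 11 in CAL27/OXA. Among the 15 tested MMP genes, 5 were higher and 2 lower in CAL27/5FU, and 2 were higher and 3 lower in CAL27/OXA. Of the 15 members higher in CAL27/5FU, 12 were under 1 FPKM in CAL27, and 6 were under it in all 3 libraries.

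**Figure D2:**
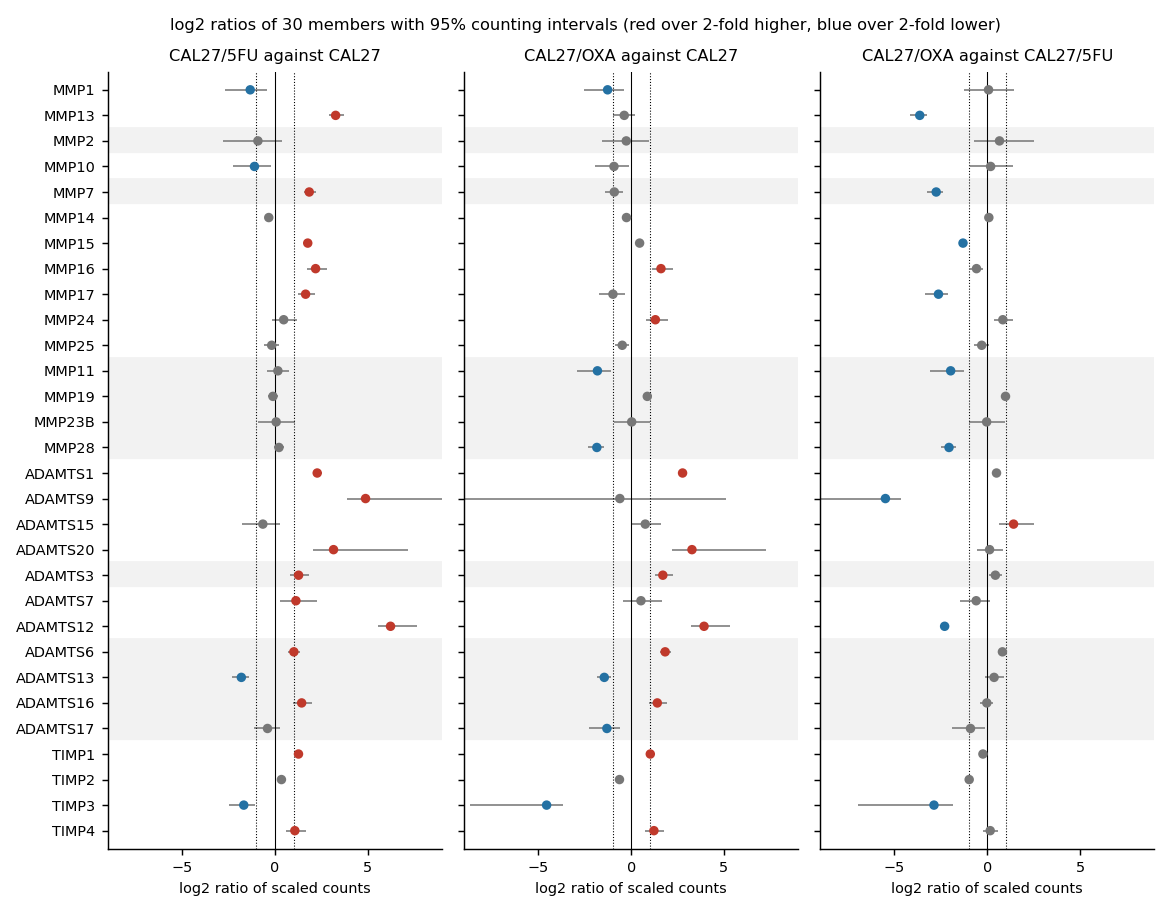
log2 ratio of TMM-scaled counts for the 30 tested members in each comparison (points) with the 95% counting interval (lines, cut at the edge of the axis), red where more than 2-fold higher, blue where more than 2-fold lower and grey otherwise, and dotted lines at 2-fold. Most red points in the CAL27/5FU panel are ADAMTS genes and membrane-type MMPs, and the panel of CAL27/OXA against CAL27/5FU holds 9 blue points and 1 red point.

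Among the collagenases, which make the first cut in fibrillar collagen, MMP13 separated CAL27/5FU from the other lines. MMP13 had 55 counts in CAL27 against 548 in CAL27/5FU and 48 in CAL27/OXA. Its level was high in CAL27/5FU alone, with a log2 ratio to CAL27 of 3.27 (2.91 to 3.74), and in CAL27/OXA the ratio was -0.37 (-0.98 to 0.20), an interval that included 0. MMP1, interstitial collagenase, had low counts and the opposite direction, with 28 in CAL27 against 10 in CAL27/5FU and 12 in CAL27/OXA. Both resistant libraries were below the parental one, at log2 ratios of -1.33 (-2.70 to -0.41) and -1.27 (-2.52 to -0.39). Even in CAL27 its level was 0.339 FPKM. MMP8, the collagenase of neutrophils, had no count in any library.

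The gelatinases, which cut denatured collagen and type IV collagen of basement membranes, were near the floor. MMP2 had 13 counts in CAL27 against 6 in CAL27/5FU and 12 in CAL27/OXA, and both intervals against CAL27 included 0. MMP9 had 2, 1 and 0 counts in the same order, which is at or under the floor of 3 counts used here. A count of 0 allows up to 3 counts, or 0.077 CPM in CAL27 against 0.0766 in CAL27/5FU and 0.0675 in CAL27/OXA.

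Among the stromelysins, proteases of broad range that also activate other pro-MMPs, MMP10 had 30 counts in CAL27 against 13 in CAL27/5FU and 17 in CAL27/OXA. Both resistant libraries were below CAL27, at log2 ratios of -1.10 (-2.28 to -0.23) and -0.92 (-1.96 to -0.10). MMP3 had 14, 0 and 2 counts and did not reach the filter. Against the floor it was at least 4.69-fold lower in CAL27/5FU. In CAL27/OXA its ratio to CAL27, without the prior count, was 0.125 (0.0138 to 0.545). MMP11, which is named stromelysin-3 but acts little on matrix proteins, had 48 counts in CAL27 against 54 in CAL27/5FU and 14 in CAL27/OXA. Only the CAL27/OXA library was low, at a log2 ratio of -1.82 (-2.94 to -1.08) to CAL27.

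MMP7, matrilysin, is the MMP that epithelial cells themselves commonly make, and it lacks the hemopexin domain of most others. MMP7 had 97 counts in CAL27 against 355 in CAL27/5FU and 58 in CAL27/OXA. Here the 5FU-resistant library was above the parental one, at a log2 ratio of 1.84 (1.54 to 2.20), and the OXA-resistant library was below it, at -0.91 (-1.43 to -0.45). Between the resistant lines the difference was -2.75 (-3.22 to -2.39). The other matrilysin, MMP26, had no count.

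The genes of the MMP cluster on chromosome 11 (chr11:102520508-102955734 in GRCh38, from MMP7 to MMP13) differed among themselves. MMP7 and MMP13 lie at its 2 ends and were the members higher in CAL27/5FU, while MMP10 and MMP1, which neighbour each other inside it, were lower there. MMP3, next to MMP1, was also lower by its bound. MMP20, MMP27, MMP8 and MMP12 had at most 3 counts in every library. The stretches shown for MMP7 and MMP10 carry TGANTCA and TATAAA at nearly the same distance from the start. TGANTCA reads TGAGTCA in MMP7 and TGAATCA in MMP10. The log2 ratios in CAL27/5FU were 1.84 for MMP7 and -1.10 for MMP10, and a link between these letters and the ratios was not tested. In GENCODE, MMP1 and MMP10 lie within WTAPP1, a pseudogene transcribed from the opposite strand that shares 7.61% of the exonic bases of MMP1 and 0 of MMP10.

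**Figure D3:**
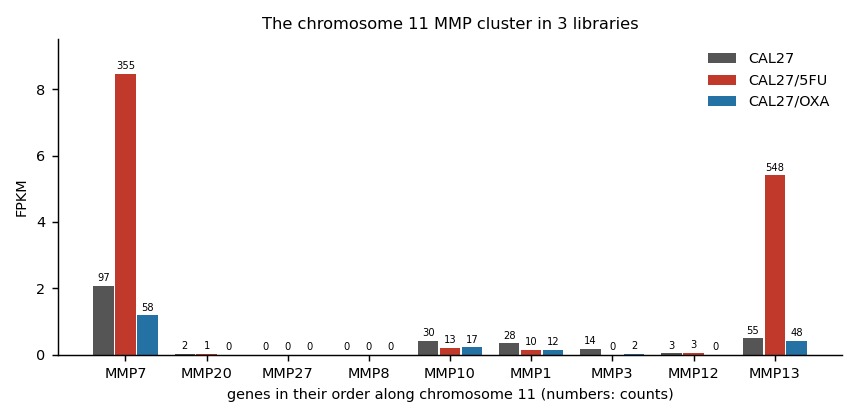
FPKM (bars, from 0) of the 9 MMP genes of the chromosome 11 cluster in their order along the chromosome, with the raw count above each bar, in CAL27 (grey), CAL27/5FU (red) and CAL27/OXA (blue). MMP7 and MMP13, at the ends, reach 8.46 and 5.40 FPKM in CAL27/5FU, and the genes between them stay under 0.5 FPKM.

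The membrane-type MMPs, which are held at the cell surface and are activated by furin-like convertases inside the cell, included the most abundant member and several past 2-fold. MMP14 had 15679 counts in CAL27 against 12489 in CAL27/5FU and 15023 in CAL27/OXA. These libraries were close, with log2 ratios to CAL27 of -0.34 (-0.37 to -0.30) and -0.25 (-0.28 to -0.22), well within 2-fold. MMP15, its nearest relative, had 696, 2380 and 1090 counts. CAL27/5FU was the highest, at a log2 ratio of 1.76 (1.64 to 1.89), and CAL27/OXA lay between, at 0.46 (0.32 to 0.60). MMP16, another transmembrane type, had 35, 167 and 126 counts, both resistant libraries being high, at log2 ratios of 2.19 (1.71 to 2.82) and 1.61 (1.11 to 2.24).

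MMP17 and MMP25 are anchored by a glycolipid instead of a transmembrane segment. MMP17 had 52 counts in CAL27 against 168 in CAL27/5FU and 29 in CAL27/OXA. It was high in CAL27/5FU, at a log2 ratio of 1.65 (1.23 to 2.16), and low in CAL27/OXA, at -0.98 (-1.74 to -0.35). MMP25 had 123, 109 and 100 counts and stayed within 2-fold in both lines. Its exons share 35.2% of their bases with MMP25-AS1 on the opposite strand, and strandedness was not given, so its counts are uncertain. MMP24 had 34, 48 and 99 counts, with the CAL27/OXA library the highest at a log2 ratio of 1.31 (0.78 to 1.96). MMP24 shares 18.1% of its exonic bases with MMP24OS on the opposite strand, and its counts carry the same uncertainty.

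Among the other MMPs, MMP28 (epilysin), an epidermal MMP, had 210 counts in CAL27 against 245 in CAL27/5FU and 65 in CAL27/OXA. CAL27/OXA was low and the other libraries were close, with log2 ratios to CAL27 of 0.21 (-0.06 to 0.49) in CAL27/5FU and -1.85 (-2.31 to -1.47) in CAL27/OXA. MMP19, which cuts basement membrane proteins, had 214, 199 and 448 counts. Here CAL27/OXA was the highest, at a log2 ratio of 0.87 (0.64 to 1.12), just inside 2-fold. MMP19 shares 17.4% of its exonic bases with TMEM198B on the opposite strand. MMP23B had 18, 19 and 21 counts, and 76.7% of its transcript matches the copy MMP23A at 98% identity or more, so its counts are uncertain. Among MMPs of this class MMP12, MMP20, MMP21 and MMP27 had at most 3 counts in every library.

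The ADAMTS genes that cleave proteoglycans such as aggrecan and versican gave some of the largest differences. ADAMTS1 had 172 counts in CAL27 against 843 in CAL27/5FU and 1351 in CAL27/OXA. Both resistant libraries were far above the parental one, at log2 ratios of 2.27 (2.05 to 2.53) and 2.77 (2.55 to 3.02), and ADAMTS1 was the ADAMTS with the highest FPKM in both, at 4.86 and 6.68. ADAMTS20, known from mouse pigment cell migration, had 2, 33 and 41 counts. It was nearly absent from CAL27 alone and passed the filter through the resistant libraries. Without the prior count its ratio to CAL27 was 16.4 (4.20 to 141) in CAL27/5FU and 17.98 (4.67 to 153) in CAL27/OXA. ADAMTS9 had 1 count in CAL27 against 84 in CAL27/5FU and 0 in CAL27/OXA. It passed the filter through the CAL27/5FU library alone. There its ratio to CAL27 without the prior count was 83.6 (14.6 to 3341). CAL27/OXA was at least 31.8-fold lower than CAL27/5FU.

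ADAMTS15, also of the proteoglycan group, had 23, 14 and 46 counts. It was the 1 member more than 2-fold higher in CAL27/OXA than in CAL27/5FU, at a log2 ratio of 1.42 (0.65 to 2.51), while both ratios to CAL27 stayed within 2-fold. The best known aggrecanases were near the floor, with 2, 6 and 2 counts for ADAMTS4 and 0, 0 and 5 for ADAMTS5. ADAMTS8 had no count.

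ADAMTS12 and ADAMTS7 cleave cartilage oligomeric matrix protein (COMP), and ADAMTS12 had the largest ratio of all members. ADAMTS12 had 9 counts in CAL27 against 817 in CAL27/5FU and 187 in CAL27/OXA, and passed the filter through the resistant libraries. Its log2 ratio was 6.22 (5.57 to 7.63) in CAL27/5FU, which was rank 9 from the top of the 13676 tested genes. In CAL27/OXA it was 3.93 (3.23 to 5.34), at rank 62. CAL27/OXA was below CAL27/5FU, at -2.30 (-2.55 to -2.08), so that all 3 libraries differed beyond counting error. ADAMTS7 had 14, 33 and 24 counts, and its log2 ratio was 1.13 (0.29 to 2.25) in CAL27/5FU and 0.53 (-0.42 to 1.65) in CAL27/OXA. The substrate COMP itself had no count in any library.

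Of the procollagen N-propeptidases, which trim the amino-terminal propeptide of fibrillar procollagens, ADAMTS3 had 43 counts in CAL27 against 107 in CAL27/5FU and 165 in CAL27/OXA. Both resistant libraries were above CAL27, at log2 ratios of 1.27 (0.79 to 1.85) and 1.71 (1.26 to 2.27). ADAMTS2 had 0, 0 and 4 counts and ADAMTS14 had 6, 0 and 4, and neither reached the filter.

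Among the other ADAMTS genes, ADAMTS6 had 123, 252 and 505 counts in CAL27, CAL27/5FU and CAL27/OXA. The log2 ratio was 1.02 (0.71 to 1.35) in CAL27/5FU, at the threshold itself, and 1.83 (1.56 to 2.14) in CAL27/OXA. ADAMTS16, which had 47, 131 and 146 counts, was high in both resistant libraries, at 1.44 (0.98 to 1.98) and 1.41 (0.96 to 1.95). ADAMTS13, the plasma protease that cuts von Willebrand factor, was lower in both. It had 204 counts in CAL27 against 57 in CAL27/5FU and 84 in CAL27/OXA, with log2 ratios of -1.81 (-2.30 to -1.42) and -1.45 (-1.85 to -1.10). It was the ADAMTS with the highest FPKM in CAL27, at 1.01. ADAMTS17 had 44, 33 and 19 counts and was past 2-fold in CAL27/OXA, at -1.31 (-2.26 to -0.59). ADAMTS19 stayed under the filter with 2, 4 and 6 counts, and ADAMTS10 and ADAMTS18 had none.

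Of the inhibitors, TIMP1, a secreted protein that also promotes cell growth, had 902 counts in CAL27 against 2183 in CAL27/5FU and 2105 in CAL27/OXA. Both resistant libraries were above CAL27 by similar amounts, at log2 ratios of 1.27 (1.16 to 1.38) and 1.03 (0.92 to 1.15). TIMP4 had 45, 97 and 123 counts, with log2 ratios of 1.07 (0.58 to 1.65) and 1.23 (0.76 to 1.79). TIMP2, which also takes part in the activation of pro-MMP2 by MMP14, had 3200, 4091 and 2361 counts. It was slightly high in CAL27/5FU, at 0.35 (0.28 to 0.41), and low in CAL27/OXA, at -0.63 (-0.71 to -0.55), within 2-fold in both.

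TIMP3, which is bound to the matrix, was below CAL27 in both resistant libraries. It had 84 counts in CAL27 against 25 in CAL27/5FU and 2 in CAL27/OXA. Its log2 ratio to CAL27 was -1.68 (-2.46 to -1.10) in CAL27/5FU and -4.55 (-8.65 to -3.68) in CAL27/OXA. Without the prior count the ratio in CAL27/OXA was 0.0209 (0.00249 to 0.0778). By TIMP3 the libraries were ordered from CAL27 down to CAL27/OXA. Even in CAL27 its level was 0.366 FPKM, far below TIMP1 at 23.6 and TIMP2 at 21.0. TIMP1, TIMP3 and TIMP4 each lie within a synapsin gene (SYN1, SYN3 and SYN2) on the opposite strand, whose counts were between 0 and 6 in these libraries.

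Other genes that govern these proteases were read from lists of related genes. Of all tested genes, 8.46% were higher and 6.72% lower in CAL27/5FU, and 6.54% were higher and 9.28% lower in CAL27/OXA. Of the list named other inhibitors of metalloproteinases, 9 of 14 were tested, and 1 was higher and 0 lower in CAL27/5FU, with 2 higher and 4 lower in CAL27/OXA. The list also holds ADAMTS-like genes and the procollagen C-proteinase enhancers PCOLCE and PCOLCE2, so these are not counts of inhibitors alone. Those higher in CAL27/OXA were SPOCK1 and SPOCK3, and those lower were PAPLN, SPOCK2, ADAMTSL4 and PCOLCE. RECK, the membrane-anchored MMP inhibitor, had 316 counts in CAL27 against 259 in CAL27/5FU and 359 in CAL27/OXA and stayed within 2-fold. PAPLN (papilin), which inhibits an ADAMTS, had 1112, 983 and 514 counts and was low in CAL27/OXA, at a log2 ratio of -1.30 (-1.46 to -1.15). The median log2 ratio of the list was -0.18 in CAL27/5FU and -0.52 in CAL27/OXA.

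Of the genes that act in zymogen activation, 12 of 13 were tested, and 2 were higher and 2 lower in CAL27/5FU, with 1 higher and 2 lower in CAL27/OXA. The list also holds serpins that inhibit plasminogen activators, and every gene counted as higher was a serpin. The plasminogen activators themselves were within 2-fold or lower. PLAU (urokinase) had 24198, 17161 and 24896 counts, and PLAT (tissue activator) had 6898, 5666 and 2877, which put CAL27/OXA at a log2 ratio of -1.45 (-1.51 to -1.39). Inhibitors of the serpin family that act on them differed more. SERPINB2 had 222, 1342 and 1994 counts and was high in both resistant libraries, at 2.58 (2.38 to 2.80) and 2.97 (2.78 to 3.18), whereas SERPINE2 had 108, 648 and 94 and was high in CAL27/5FU alone, at 2.56 (2.28 to 2.89). FURIN, which activates the membrane-type MMPs, had 4132, 4228 and 4321 counts and stayed within 2-fold. PCSK5, a related convertase, had 927, 366 and 485 counts and was more than 2-fold lower in both lines.

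Of the inducers, anchors and clearance receptors, 7 of 8 were tested, with 1 higher and 2 lower in CAL27/5FU and 0 higher and 2 lower in CAL27/OXA. LRP1, which takes up several MMPs and their inhibitor complexes from the medium, had 10360, 4104 and 3293 counts, with log2 ratios of -1.34 (-1.39 to -1.29) and -1.84 (-1.90 to -1.79). LCN2, which binds pro-MMP9, had 9878, 20132 and 9718 counts and was high in CAL27/5FU alone, at 1.02 (0.99 to 1.05). BSG (CD147), the inducer of MMPs in stromal cells, stayed within 2-fold at 39224, 35219 and 29842 counts.

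All 15 genes of the AP-1 and ETS list of transcription factors were tested. The list also holds RUNX2, a Runt factor. In CAL27/5FU 5 were higher, against 8.46% of all tested genes, and 2 were lower, against 6.72%. In CAL27/OXA 5 were higher, against 6.54%, and 4 were lower, against 9.28%. FOSL1 had 2805 counts in CAL27 against 8377 in CAL27/5FU and 21063 in CAL27/OXA, with log2 ratios of 1.57 (1.51 to 1.63) and 2.72 (2.66 to 2.78). FOS was low in both, at 603, 294 and 301 counts. The PEA3 factors ETV1, ETV4 and ETV5 were high in both resistant libraries, ETV5 with 216, 1146 and 1342 counts, while ELF3, an epithelial ETS factor, had 7125, 2463 and 742. The list medians were -0.28 in CAL27/5FU and -0.23 in CAL27/OXA.

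Among the matrix substrates 12 of 17 were tested, and 2 were higher and 1 lower in CAL27/5FU, with 1 higher and 2 lower in CAL27/OXA. VCAN (versican), a substrate of ADAMTS1 and ADAMTS9, had 16 counts in CAL27 against 83 in CAL27/5FU and 20 in CAL27/OXA. Its log2 ratio was 2.24 (1.59 to 3.24) in CAL27/5FU, where its level was 0.268 FPKM. BCAN had 111, 82 and 465 counts and was high in CAL27/OXA alone, at 1.86 (1.58 to 2.19). HSPG2 was low in CAL27/OXA, at -1.655. COL7A1, the anchoring fibril collagen, had 23498, 7720 and 6831 counts and was low in both, at -1.61 and -1.97. ACAN, NCAN, COMP, ELN and COL3A1 stayed under the filter. Of the membrane ADAMs, the cell surface relatives, 10 of 11 were tested, with 2 higher and 0 lower in CAL27/5FU and 1 higher and 2 lower in CAL27/OXA. ADAM8 had 1261, 3583 and 5181 counts and was high in both, and ADAM17, the sheddase of TNF and EGFR ligands, had 6175, 5216 and 2871 and was low in CAL27/OXA, at -1.29 (-1.36 to -1.23).

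**Figure D4:**
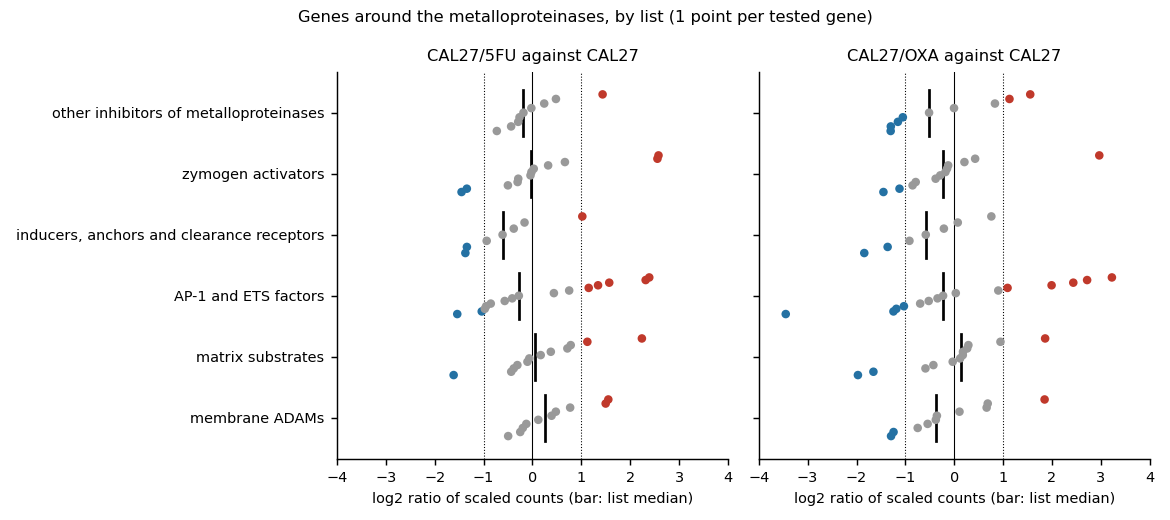
log2 ratio of TMM-scaled counts for each tested gene of 6 lists of related genes (points) in CAL27/5FU and in CAL27/OXA against CAL27, with the list median as a black bar, red and blue points past 2-fold and dotted lines at 2-fold. The medians lie between -0.61 and 0.26, and the AP-1 and ETS list has points past 2-fold on both sides in both panels.

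Markers of cell types were checked in the same libraries. Squamous epithelial markers were abundant in CAL27, with a summed level of 4520 FPKM, of which KRT5 made 2973. The sum was lower in CAL27/5FU (954.5) and CAL27/OXA (1252). In these lines 4 and 3 of 6 were more than 2-fold lower, against 6.72% and 9.28% of all tested genes. The markers so called were the keratins KRT5, KRT14 and KRT6A in both lines, and TP63 in CAL27/5FU alone. The log2 ratio of TP63 was -1.28 in CAL27/5FU and 0.13 in CAL27/OXA. CDH1, at -0.14 and -0.16, and EPCAM, at 0.395 and 0.03, stayed within 2-fold. KRT14, a basal keratin, had 58222, 948 and 8423 counts. The summed fibroblast list was 7.51, 11.9 and 14.9 FPKM. In each resistant line 2 of its 4 tested genes were more than 2-fold higher. The share of all tested genes was 8.46% in CAL27/5FU and 6.54% in CAL27/OXA. LUM had 120, 414 and 877 counts, with log2 ratios of 1.76 and 2.66, and COL1A2 had 90, 300 and 212, with 1.71 and 1.03. COL1A1, at 1387, 1068 and 1050 counts, was below CAL27 in both but within 2-fold, at -0.38 and -0.59. PDGFRB had 35, 55 and 76 counts and also stayed within 2-fold, at 0.62 and 0.89. PDGFRA had 0, 6 and 2 counts and DCN 2, 6 and 8. The leukocyte list summed to 52.6, 50.1 and 70.3 FPKM, with the defining marker PTPRC at 2, 0 and 0 counts. CD14 had 637, 1290 and 341 counts, higher in CAL27/5FU at a log2 ratio of 1.01 and lower in CAL27/OXA at -1.09, and CD68 had 3143, 1827 and 5055. The endothelial list summed to 0.437, 2.29 and 1.06 FPKM, with KDR at 0, 3 and 6 counts. CDH5 had 43, 338 and 163 counts and was higher in both resistant lines, at log2 ratios of 2.91 and 1.69. VWF had 44, 19 and 29 counts, lower in CAL27/5FU at -1.14 and within 2-fold in CAL27/OXA at -0.75. PECAM1 had 13, 6 and 11 counts and stayed within 2-fold, at -0.92 and -0.37. The part of these marker differences in the MMP, ADAMTS and TIMP differences was not tested.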

How the data were processed

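Per the labels and the methods of the study, total RNA was isolated with TRIzol, libraries were prepared with the NEBNext Ultra kit, and sequencing and first analysis were done by Novogene on an Illumina platform. The submitters' processing notes name CASAVA 1.8, HISAT2 2.0.5 and the build GRCh38 (hg38). The counting tool, the annotation and the strandedness are not given in the sources used here. The authors deposited a table of raw counts per gene symbol and a table of FPKM values. Count, FPKM and library total gave 1 gene length within 0.1% for 14367 of 14367 genes with counts in every library, so FPKM is scaled by total counts alone. Each table also holds 3 further columns of per-sample values, named as second samples of the same lines, which were left aside because no sample label describes them.

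TMM factors (edgeR 4.0.16 in R 4.3.3) set the effective library sizes, with a filter of a mean of at least 10 counts (13676 genes). With 1 labelled library per line, edgeR's and DESeq2's tests were not run. Ratios and exact intervals were computed in Python 3.11.15 with scipy 1.17.1 and tested on simulated data. Positions and overlaps came from GENCODE 29 (GRCh38), and near-identical copies from blastn 2.17.0 at 98% identity over at least 50 bases. The members and lists were chosen with earlier results of these data known. Every member past the filter is named, as are members under it with more than 3 counts in a library and, of the other lists, chiefly genes past 2-fold in a resistant line. RECK, PLAU, FURIN and BSG, within 2-fold in both lines, and the substrates and cell type markers at or near 0 were named for their roles after their values were seen. Other cell type markers within 2-fold in both lines were also named after their values were seen. Alternatives were DESeq2 1.42.0 size factors, total counts, upper quartile, prior counts of 0.5 and 5, no filter, a mean of at least 50 counts, FPKM with pseudocounts of 1 and 0.1, 4-fold and the whole interval past 2-fold. The values of 1 gene of the zymogen activation list are not reported here.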

Additional observations from a re-analysis of the deposited data

Results flagged for a closer look

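For 3 members the log2 ratio to CAL27 was above 0 in CAL27/5FU and below 0 in CAL27/OXA, with both 95% counting intervals excluding 0. These were MMP17, MMP7 and TIMP2. The share of all tested genes that meet the same rule was not computed, so this count cannot be read as particular to the members. With 1 library per line the difference between the resistant lines was not tested, and both ratios share the CAL27 library. The log2 ratio in CAL27/OXA minus that in CAL27/5FU was -2.63 for MMP17, which had 52 counts in CAL27 against 168 in CAL27/5FU and 29 in CAL27/OXA. For MMP7, with 97, 355 and 58 counts, it was -2.75. For TIMP2, with 3200, 4091 and 2361 counts, it was -0.975, and neither ratio to CAL27 was past 2-fold.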

How the results depend on the processing

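Counting error and the use of 1 library per line limit every value here: most members lie under 1 FPKM, and the spread between cultures was not measured. No paired analysis was possible because each line has 1 labelled library. The median log2 ratio of the members in CAL27/5FU (0.74) was 0.24 with FPKM and a pseudocount of 1, 1.27 with a mean of at least 50 counts and 0.28 without the filter. In CAL27/OXA (-0.11) it was 0.042 and 0.020 with FPKM and pseudocounts of 0.1 and 1, 0.87 with a mean of at least 50 counts, -0.17 without the filter and 0.016 with total counts, so its sign was not stable. The 15 members higher in CAL27/5FU became 6 with FPKM and a pseudocount of 1 and 6 past 4-fold. The 10 higher in CAL27/OXA became 2 with FPKM and a pseudocount of 1, 3 past 4-fold and 6 with the whole interval past 2-fold. The 1 higher in CAL27/OXA than in CAL27/5FU became 4 without the filter and 0 with either FPKM pseudocount, a mean of at least 50 counts, 4-fold or the whole interval. Over all tested genes this count fell from 571 to 407 and 165 with FPKM and pseudocounts of 0.1 and 1, and to 319 with the whole interval. The 4 lower in CAL27/5FU became 2 and 0 with FPKM and pseudocounts of 0.1 and 1, 1 with a mean of at least 50 counts, 0 past 4-fold and 2 with the whole interval. The 6 lower in CAL27/OXA became 0 with FPKM and a pseudocount of 1, 2 with a mean of at least 50 counts, 10 without the filter and 1 past 4-fold. Counts over all tested genes fell too. FPKM with a pseudocount of 1 left 503 higher and 311 lower in CAL27/5FU, and 368 and 481 in CAL27/OXA. The whole interval left 749 and 593 in CAL27/5FU, and 526 and 864 in CAL27/OXA. By the main setting these were 1157 and 919, and 894 and 1269. For 4-fold and the other filters they were not computed. A pseudocount of 1 FPKM exceeds the level of most members and shrinks their ratios, and a stricter filter tests fewer genes; the cause of the other changes was not tested. Scaling by total counts moved the median of all tested genes to 0.17 in CAL27/5FU, with 1432 higher and 699 lower in place of 1157 and 919, and to 0.14 in CAL27/OXA. This shift, which all genes share, took MMP10 in CAL27/5FU to -0.95, MMP19 in CAL27/OXA to 1.00 and TIMP2 between the resistant lines to -1.01, across the threshold, and turned MMP19 in CAL27/5FU from -0.11 to 0.06. A prior count of 0.5 put MMP17 in CAL27/OXA at -1.02, MMP2 in CAL27/5FU at -1.06 and ADAMTS9 in CAL27/OXA, at the floor in both libraries, at -1.63, all past the threshold. A prior count of 5 put MMP10 in CAL27/5FU at -0.97 and took ADAMTS6 there from 1.02 to the threshold of 1, so that both lost their call.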
